A study of Mus musculus with 12 samples.

Results

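The creatine cycle of subcutaneous white adipose tissue (scWAT) was described here by the RNA levels of 7 genes: *Gatm* and *Gamt*, which make creatine, *Slc6a8*, which takes it up, the creatine kinases *Ckb*, *Ckmt1* and *Ckmt2*, and the phosphatase gene *Alpl*. They were chosen by name for their place in the cycle and not by their values, and were found by their Ensembl IDs among the 55401 genes counted. Of the 7, 6 had enough counts to be among the 16540 genes tested, and *Ckmt2* did not.

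The 12 libraries each came from 1 female mouse, 16 weeks old at the start of treatment. The 4 groups of 3 libraries were wild-type mice (Jmjd1a +/+) and mice homozygous for the HY allele (Jmjd1a HY/HY), each housed for 1 week at 30°C (thermoneutral) or at 8°C (cold exposed), after all had been acclimated at 30°C. The HY allele is a knock-in that was made by CRISPR in C57BL/6J eggs. It exchanges a histidine of JMJD1A (KDM3A), a demethylase of histone H3 lysine 9, for a tyrosine. The study describes the mutant protein as defective in demethylase activity. The HY/HY mice carried the allele in every tissue. All mice came from a single line and were caged individually. Each library is therefore 1 animal, and in bulk tissue fewer cells of a type and less RNA per cell cannot be told apart.

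Creatine is made in a pair of steps. GATM joins the amidino group of arginine to glycine, and GAMT methylates the product. Creatine kinases move phosphate between ATP and creatine, and the mitochondrial forms do so next to the carrier that exports ATP from mitochondria. In thermogenic fat, phosphocreatine can be hydrolysed again by TNAP, the phosphatase encoded by *Alpl*, so that ATP is spent and heat is released without UCP1. The cytosolic brain-type kinase CKB has been placed in this cycle in thermogenic adipocytes, whereas *Ckm* and *Ckmt2* are the kinases of striated muscle.

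*Ckb* (ENSMUSG00000001270.9, chr12:111669355-111672338), *Gamt* (ENSMUSG00000020150.13, chr10:80258151-80261025) and *Ckmt1* (ENSMUSG00000000308.14, chr2:121357773-121363737) carried the largest differences, so the 250 bases before their start sites are shown, 5′ to 3′, from RefSeq (GRCm38.p6, the build of mm10). Capitals mark the matches, on either strand, to any of 6 motifs searched in windows that also held 50 bases past the start. They were the TATA box TATAAA, the nuclear factor Y box written CCAAT, the nuclear receptor half-site AAGGTCA, the cAMP response element TGACGTCA, the motif of ETS factors CCGGAAG and the E-box motif CACGTG, none of which overlaps another in these windows.
Ckb (chr12:111672339-111672588, minus strand): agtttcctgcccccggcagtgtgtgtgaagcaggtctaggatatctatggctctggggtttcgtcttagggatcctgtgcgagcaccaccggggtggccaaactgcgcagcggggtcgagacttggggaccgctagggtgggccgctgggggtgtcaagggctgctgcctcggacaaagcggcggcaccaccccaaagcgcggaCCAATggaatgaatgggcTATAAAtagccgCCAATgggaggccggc
Gamt (chr10:80261013-80261262, minus strand): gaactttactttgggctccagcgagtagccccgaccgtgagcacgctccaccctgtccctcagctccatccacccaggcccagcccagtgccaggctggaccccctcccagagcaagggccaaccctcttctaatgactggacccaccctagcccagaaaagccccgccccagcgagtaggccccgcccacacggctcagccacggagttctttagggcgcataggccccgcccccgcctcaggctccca
Ckmt1 (chr2:121357526-121357775, plus strand): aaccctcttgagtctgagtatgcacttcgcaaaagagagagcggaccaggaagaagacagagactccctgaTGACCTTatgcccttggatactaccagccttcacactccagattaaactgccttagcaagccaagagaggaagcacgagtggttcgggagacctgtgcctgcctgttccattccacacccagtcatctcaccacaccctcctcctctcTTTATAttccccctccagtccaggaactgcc
The *Ckb* window held TATAAA at -28 to -23 from the start, with a CCAAT on each side of it, at -46 to -42 and at -16 to -12. TATAAA was present in 13.6% of the 32851 windows of the genome and CCAAT in 37.4%. The *Gamt* window held none of the 6 motifs, at a GC content of 66% against a median of 52.7% over all windows. *Ckmt1* had AAGGTCA, found in 4.72% of the windows, on the minus strand at -179 to -173, and TATAAA on the minus strand at -31 to -26. The cAMP element, the ETS motif and the E-box, present in 1.79%, 8.86% and 7.15% of all windows, were in none of the windows of the 6 members with an entry; *Slc6a8* had none. These matches are descriptions of the sequence and not binding sites. The other tested members were *Gatm* (ENSMUSG00000027199.14, chr2:122594473-122611277), *Slc6a8* (ENSMUSG00000019558.14, chrX:73673133-73682502) and *Alpl* (ENSMUSG00000028766.10, chr4:137741731-137796384), and *Ckmt2* (ENSMUSG00000021622.3) lies at chr13:91853386-91876923. *Ckmt1* shares bases with *Strc* and with a long noncoding RNA gene in RefSeq, and *Slc6a8* with another such RNA gene; the counts were kept by strand.

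Levels are CPM, the counts of a gene scaled to a fixed library size, after TMM normalization, given as mean ± SD of 3 mice. The libraries held 13592629 to 26352081 counts, every library at 8°C fewer than every library at 30°C, so that 3 counts stood for 0.103 to 0.243 CPM. *Jmjd1a* itself was counted at 49.3 ± 11.2 CPM (30°C) and 39.9 ± 3.77 CPM (8°C) in wild-type mice and at 45.5 ± 7.67 and 44.7 ± 1.4 CPM in the HY/HY mice (adjusted p = 0.753 and 0.604 between the genotypes by edgeR), which does not tell the alleles apart. The adipocyte identity of the tissue was borne out by 7 white adipocyte markers, whose summed level was 21800 to 48000 CPM, and by 6 beige adipocyte markers at 8320 to 9230 CPM in wild-type mice at 8°C against 524 to 1660 CPM in HY/HY mice. Of the other marker lists, 12 of skeletal muscle summed to 1620 CPM in replicate 2 of wild-type mice at 30°C and to 5.33 to 26.7 CPM in the other 11 libraries. The 9 markers of mammary epithelium ranged from 884 CPM in replicate 3 of HY/HY mice at 30°C to 5550 CPM in that wild-type replicate 2. Results that rest on these 2 libraries are therefore given with and without them. The labels name no batch. The 7 lymph node markers summed to 2.7 to 17.1 CPM and the 5 Schwann cell markers to 80.8 to 208 CPM over all libraries.

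Expressed per kilobase of exon, *Ckb* had the highest level of the 7 genes in every group, with mean CPM per kilobase from 27.7 in wild-type mice at 30°C to 60.4 at 8°C. Next came *Gamt*, with 7.4 in wild-type and 12.5 in the HY/HY mice at 30°C and with 8.02 in the HY/HY mice in the cold, and *Alpl* with 7.29 in wild-type mice at 8°C. The means of *Slc6a8*, *Alpl* and *Ckmt1* in wild-type mice at 30°C were 5.65, 4.89 and 3.98 CPM per kilobase. The mean of *Ckmt1* rested on replicate 2, at 7.26, with replicates 1 and 3 at 2.59 and 2.08. *Gatm*, whose product makes the creatine precursor, was low throughout, from 1.76 to 2.55.

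**Figure D1:**
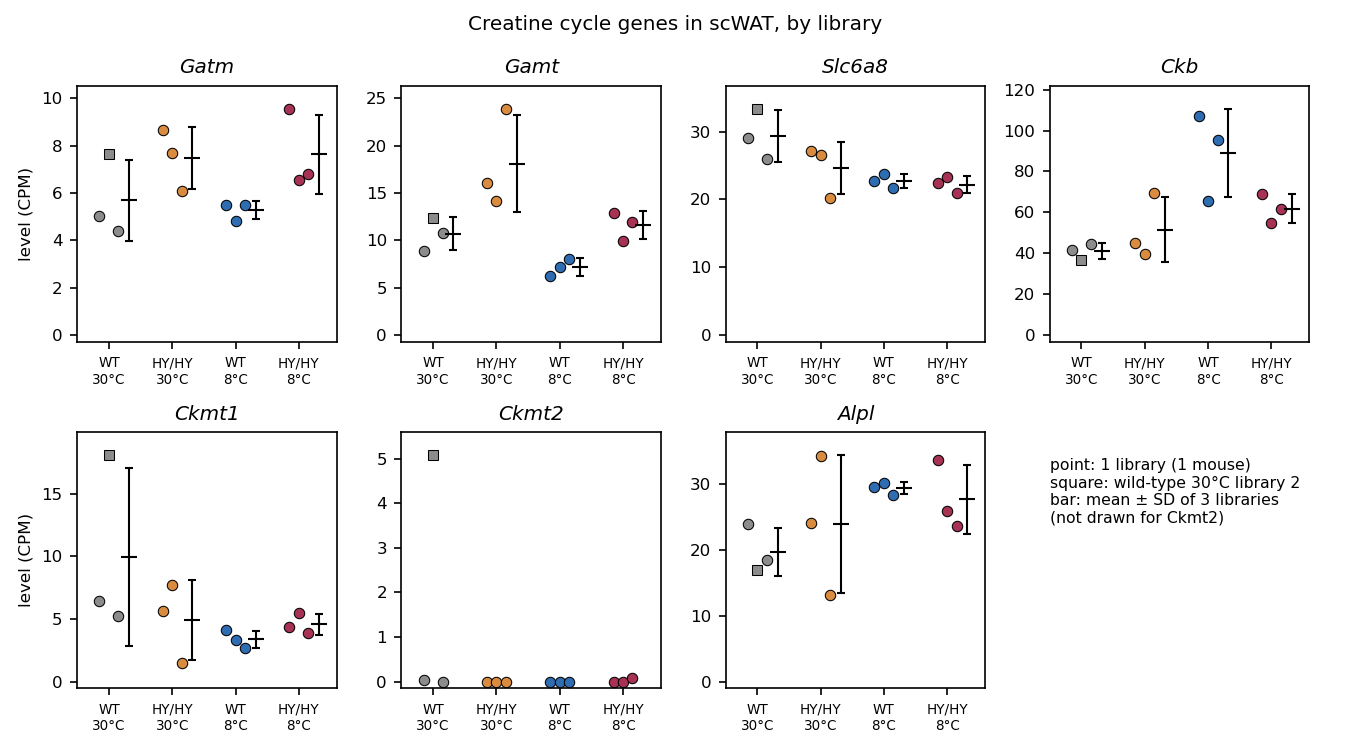
Level of each creatine cycle gene in CPM (vertical axis, linear) in the 12 libraries, by group; each point is 1 mouse, the square is wild-type replicate 2 at 30°C, and bars show mean ± SD of 3 libraries. All 3 wild-type libraries at 8°C lie above the 3 at 30°C for Ckb (65.4 to 107 against 36.8 to 44.5 CPM), and Ckmt2 was counted in quantity in the square alone.

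Cold exposure raised *Ckb* in wild-type mice, and this was the single call among the 6 members tested in any of the 5 comparisons. Calls needed an edgeR adjusted p under 0.05 together with a fold change above 1.5 or below 0.67. By this rule 1 of 6 members was called higher and 0 lower by cold in wild-type mice, where 10.3% of all genes tested were called higher, 6.93% lower and 17.3% in either direction. The members' median log2 fold change was -0.24, against -0.069 over all genes. In 5 of the 6 members the libraries of both temperatures did not overlap, 2 of them higher and 3 lower in the cold. The same held for 43.4% of all genes, 20.7% higher and 22.7% lower. By cold in HY/HY mice edgeR called 0 members, with 1 at an unadjusted p under 0.05, and 0.248% of all genes. DESeq2 called 0 members, and 310 of the 16540 genes. The libraries of 1 member, *Gamt*, did not overlap and were lower in the cold, as for 8.99% of all genes. Between the genotypes edgeR called 0 members at 30°C and 0 at 8°C, with 1 and 3 members at an unadjusted p under 0.05, while DESeq2 called 1 at each temperature, *Gamt*. Of all genes, edgeR called 1.00% at 30°C and 5.93% at 8°C, where 1.51% were higher and 4.42% lower in HY/HY mice, and DESeq2 called 669 and 1368 genes. At 30°C the libraries of 1 member did not overlap and were higher in HY/HY mice (7.67% of all genes), and at 8°C those of 2 (16.4% of all genes). For the interaction of genotype and temperature, 0 members were called by edgeR and 0 by DESeq2, 1 had an unadjusted p under 0.05, and edgeR called 2.24% of all genes at an adjusted p under 0.05.

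**Figure D2:**
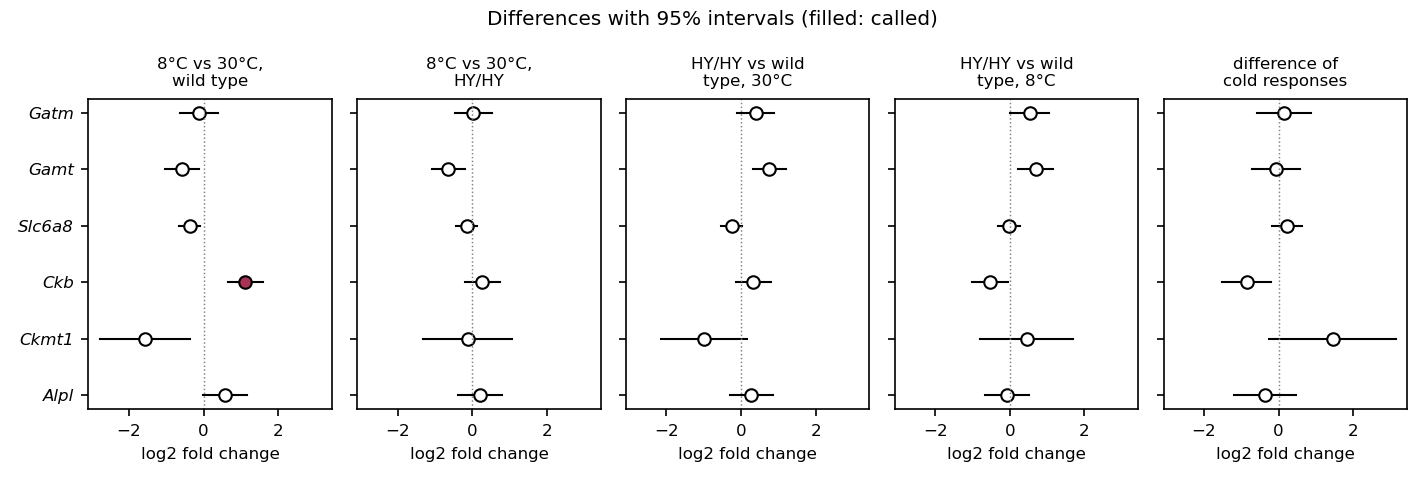
Log2 fold change (horizontal axis) of the 6 tested members with its 95% interval in 5 comparisons, from edgeR; the last panel is the interaction (cold response in HY/HY less that in wild-type), and a filled point marks a call. Ckb by cold in wild-type mice, at 1.12, is the filled point, and the Gamt intervals lie below 0 for cold and above 0 for genotype at both temperatures.

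*Ckb*, the cytosolic kinase that reforms phosphocreatine from ATP, stood at 41.6, 36.8 and 44.5 CPM in the 3 wild-type mice at 30°C and at 107, 65.4 and 95.2 CPM in the 3 at 8°C. Every mouse in the cold lay above every mouse at 30°C. The fold change was 2.18 (log2 1.12, SE 0.22, 95% interval 0.65 to 1.60, edgeR adjusted p = 0.00389; exact permutation test, p = 0.1, the smallest that 3 against 3 allow). Leaving out wild-type replicate 2 at 30°C left *Ckb* called, with a log2 fold change of 1.05 and an adjusted p of 0.02, the highest of any alternative.

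In HY/HY mice *Ckb* was at 45.2, 39.6 and 69.5 CPM at 30°C and at 69.1, 54.7 and 61.7 CPM at 8°C. Here the groups overlapped, since replicate 3 at 30°C was as high as the highest mouse in the cold. The log2 fold change was 0.27 (95% interval -0.20 to 0.74, edgeR adjusted p = 0.601), and 0.55 (adjusted p = 0.112) without that replicate. The cold response of HY/HY mice was smaller than that of wild-type mice by 0.86 on the log2 scale (SE 0.31, interval of the difference -1.52 to -0.19), which did not pass the adjustment over all genes (edgeR unadjusted p = 0.0161, adjusted p = 0.205). The difference was -0.583 (edgeR adjusted p = 0.313) without HY/HY replicate 3 at 30°C. With wild-type replicate 2 at 30°C also left out it was -0.505 (edgeR adjusted p = 0.442). At 8°C the mean was 89.2 ± 21.5 CPM in wild-type and 61.8 ± 7.19 CPM in HY/HY mice, with wild-type replicate 2 inside the HY/HY range. The log2 fold change was -0.53 (95% interval -1.001 to -0.05864, edgeR unadjusted p = 0.0306, adjusted p = 0.169). The order of the means was wild-type at 8°C, HY/HY at 8°C, HY/HY at 30°C and wild-type at 30°C, each overlapping the next. *Ucp1*, the uncoupling protein of beige adipocytes, was at 5480 ± 516 CPM in wild-type and at 575 ± 347 CPM in HY/HY mice at 8°C, the same order of these 2 groups as for *Ckb*.

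*Ckb* has near copies elsewhere in the genome, which matters because pairs with more than 1 alignment were left out of the counts. Its transcript of 1478 bases aligned to 4 other places in the NCBIM37 genome. The closest, on chromosome 4, matched 1411 bases at 95.4% identity, and the others, on chromosomes 16 and 17, had 88.1% to 92.4%. The annotated pseudogene at the closest copy, *Gm12892*, received 5 to 15 counts per library, or 0.989 per 100 counts of *Ckb* over all libraries. The loss of pairs that fit *Ckb* and a copy equally well was not measured. The transcripts of the other 6 members aligned to their own locus alone.

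*Ckmt1*, the ubiquitous mitochondrial creatine kinase, was low and variable at 30°C. It stood at 6.47, 18.1 and 5.20 CPM in wild-type mice at 30°C and at 4.08, 3.32 and 2.69 CPM at 8°C. The groups did not overlap, and replicate 2 at 30°C stood far above the other mice. The log2 fold change was -1.57 (95% interval -2.79 to -0.36, edgeR adjusted p = 0.0589), and -0.80 (adjusted p = 0.298) without replicate 2. *Ckmt1* was called lower by cold in wild-type mice in 8 of 21 alternatives. Among these were DESeq2 (adjusted p = 0.021) and edgeR without wild-type replicate 3 or HY/HY replicate 3 at 30°C (adjusted p = 0.0324 and 0.0177). With wild-type replicate 2 and HY/HY replicate 3 at 30°C both left out it was also called (log2 fold change -0.80, edgeR adjusted p = 0.0427). In HY/HY mice the values were 5.65, 7.70 and 1.45 CPM at 30°C and 4.33, 5.50 and 3.89 CPM at 8°C, with overlap (log2 fold change -0.12, edgeR adjusted p = 0.942). Here replicate 3 at 30°C was the lowest of all 12 libraries, with 28 counts. Between the genotypes the log2 fold change was -1.0 at 30°C (95% interval -2.15 to 0.15) and 0.45 at 8°C (interval -0.80 to 1.70). Without wild-type replicate 2 the value at 30°C was -0.23 (edgeR adjusted p = 0.873). With HY/HY replicate 3 at 30°C also left out it was 0.19 (edgeR adjusted p = 0.812). The order of the means was wild-type at 30°C, HY/HY at 30°C, HY/HY at 8°C and wild-type at 8°C, each overlapping the next.

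*Ckmt2*, the sarcomeric mitochondrial kinase, was counted 141 times in wild-type replicate 2 at 30°C. The other 11 libraries together held 2 counts among 200494734, with 0 counts in 9 of them and 1 count in each of the other 2. A count of 0 allows up to 3 counts, or 0.103 to 0.243 CPM depending on the library, and this covers counting error only. *Ckm*, the cytosolic muscle kinase, was counted 5457 times in the same library and 45 times in the other 11, so that *Ckmt2* came with 2.58 counts per 100 counts of *Ckm*. No fold change is given for *Ckmt2*, because all of its counts but 2 were in this library, in which the summed muscle markers were at 1620 CPM. Of 9 muscle markers tested, 8 were called lower by cold in wild-type mice, as were 6.93% of all genes. The marker sums were 12.4 and 26.7 CPM in the other wild-type mice at 30°C and 5.64 to 14.8 CPM at 8°C. Without replicate 2 at 30°C *Ckm*, one of these markers, had an edgeR adjusted p of 0.724. The calls of the other muscle markers without this library are not given.

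Among the 4 creatine kinase genes, *Ckb* held 89.6% to 98.7% of the counts per kilobase in the 11 libraries other than wild-type replicate 2 at 30°C. *Ckmt1* held 1.22% to 10.3% in these libraries, *Ckm* 0% to 2.61% and *Ckmt2* 0% to 0.126%. In wild-type replicate 2 at 30°C, *Ckm* had 79.6% and *Ckb* 14.2%. The mean share of *Ckb* in wild-type mice at 30°C was 65.6% with this library and 91.2% without it. It was 93.7% in the HY/HY mice at 30°C, and in the cold 97.2% in wild-type and 95.7% in HY/HY mice (SD 1.14). In the cold the shares of wild-type mice, 96.1% to 97.9%, overlapped those of HY/HY mice, 94.4% to 96.4%.

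**Figure D3:**
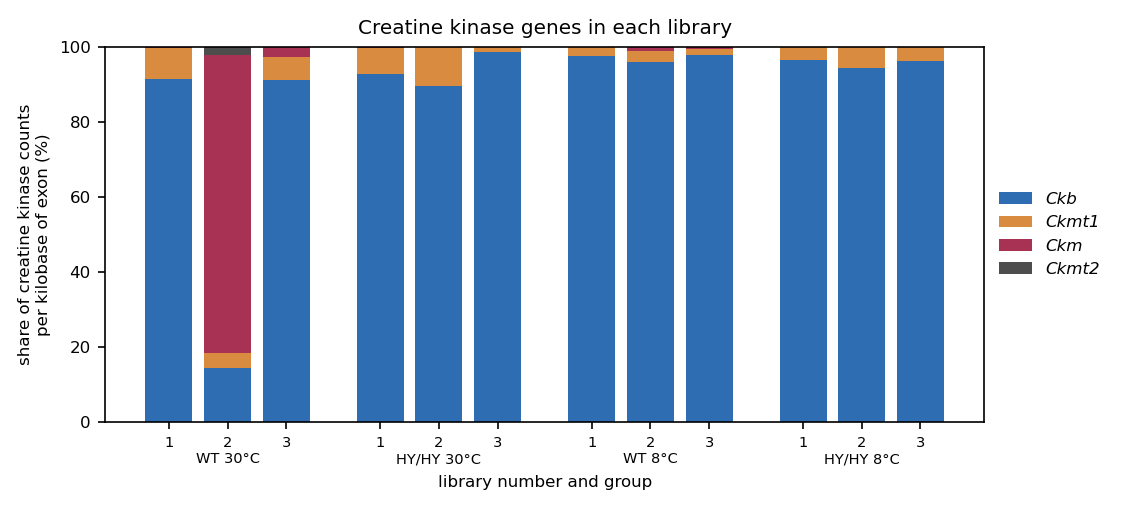
Share of each creatine kinase gene in the summed counts per kilobase of exon (vertical axis, percent) in each library, by group. Ckb fills 89.6% or more of every bar except wild-type replicate 2 at 30°C, where Ckm has 79.6%.

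*Gamt*, the methyltransferase of the last step of creatine synthesis, was higher in HY/HY mice over both temperatures, though neither temperature alone passed the test. It was at 8.87, 12.4 and 10.8 CPM in wild-type mice and at 16.1, 14.2 and 23.9 CPM in HY/HY mice at 30°C. In the cold it was at 6.24, 7.16 and 8.07 CPM in wild-type and at 12.9, 9.93 and 11.9 CPM in HY/HY mice. At each temperature every HY/HY mouse lay above every wild-type mouse, and in each genotype every mouse at 8°C lay below every mouse at 30°C. The log2 fold change between the genotypes was 0.75 at 30°C (SE 0.20, edgeR adjusted p = 0.0893) and 0.69 at 8°C (SE 0.21, adjusted p = 0.0735), neither past the threshold. With cold it was -0.58 in wild-type mice (edgeR adjusted p = 0.0652) and -0.64 in HY/HY mice (adjusted p = 0.197), and the difference between these was -0.061 (95% interval -0.70 to 0.58). The means fell in the order HY/HY at 30°C, HY/HY at 8°C, wild-type at 30°C and wild-type at 8°C, of which the middle pair overlapped.

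Because the differences ran the same way at both temperatures, the genotypes were also compared over the mean of both temperatures in the same model, a contrast chosen after these values were seen. *Gamt* was then higher in HY/HY mice by a log2 fold change of 0.72 (SE 0.15, 95% interval 0.40 to 1.04, edgeR adjusted p = 0.016), with 4.38% of all genes called, 2.13% higher and 2.26% lower. This call held in all 20 alternatives that gave it a value, wild-type replicate 2 and HY/HY replicate 3 at 30°C left out among them (lowest log2 fold change 0.60, highest adjusted p 0.0458). For cold over both genotypes its log2 fold change was -0.61 (edgeR adjusted p = 0.012), with 12.3% of all genes called, 7.29% higher and 4.96% lower. Without wild-type replicate 2 at 30°C it was -0.55 (edgeR adjusted p = 0.0314), short of the fold limit, as it also was without HY/HY replicate 3 at 30°C (-0.48), wild-type replicate 1 at 8°C (-0.56) and HY/HY replicate 2 at 8°C (-0.56), and it was -0.42 without both libraries that stand apart. *Ckb* was the other member called there, higher by 0.70 (edgeR adjusted p = 0.00769). Between the genotypes over both temperatures, 4 of 5 macrophage markers and 2 of 7 white adipocyte markers were called higher in HY/HY mice, with medians of 0.882 and 0.343 on the log2 scale. Of the mammary epithelium markers 3 of 9 were called lower (median -0.332), as was 1 each of 6 beige adipocyte, 9 skeletal muscle and 5 Schwann cell markers. Macrophage sums were 81.8 to 140 CPM in HY/HY against 69.6 to 83.1 CPM in wild-type mice at 30°C, with overlap. At 8°C they were 108 to 161 CPM against 61 to 63.4 CPM. White adipocyte sums were 21800 to 48000 CPM in HY/HY against 22400 to 42300 CPM in wild-type mice at 30°C. At 8°C they were 35000 to 45800 CPM against 28700 to 35300 CPM, and they overlapped at both temperatures. The part of these cells in the *Gamt* values was not tested.

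*Gatm*, whose enzyme makes guanidinoacetate from arginine and glycine, was at 5.03, 7.64 and 4.41 CPM in wild-type and at 8.67, 7.70 and 6.07 CPM in HY/HY mice at 30°C. In the cold the values were 5.49, 4.82 and 5.51 CPM in wild-type and 9.57, 6.56 and 6.81 CPM in HY/HY mice, and these groups did not overlap. The log2 fold change between the genotypes was 0.39 at 30°C (edgeR adjusted p = 0.395) and 0.54 at 8°C (adjusted p = 0.209). Over both temperatures it was 0.46 (edgeR adjusted p = 0.102), and 0.60 (adjusted p = 0.0406) without wild-type replicate 2 at 30°C, the highest wild-type mouse. With cold *Gatm* differed by -0.12 in wild-type mice (95% interval -0.63 to 0.40) and by 0.030 in HY/HY mice (interval -0.47 to 0.53). The order of the means was HY/HY at 8°C, HY/HY at 30°C, wild-type at 30°C and wild-type at 8°C, each overlapping the next. Macrophage markers moved with the genotype in the cold: 3 of 5 were called higher in HY/HY mice, with sums of 108 to 161 CPM against 61 to 63.4 CPM. *Cd209a*, a dendritic cell and macrophage gene, had rank 2 among the genes closest to *Gatm* in pattern (r = 0.943 over 11 libraries). *Cd209a* and the others of the closest 3 were on none of the marker lists used here. The part of macrophages in the *Gatm* values was not tested.

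*Slc6a8*, the creatine transporter of the plasma membrane, lay between 20.2 and 33.4 CPM in all 12 libraries. It was at 29.0, 33.4 and 25.9 CPM in wild-type mice at 30°C and at 22.7, 23.8 and 21.7 CPM at 8°C. The groups did not overlap, with a log2 fold change of -0.37 (95% interval -0.66 to -0.08, edgeR adjusted p = 0.0599), and of -0.27 (adjusted p = 0.217) without replicate 2 at 30°C. In HY/HY mice it was at 27.1, 26.6 and 20.2 CPM at 30°C and at 22.5, 23.3 and 20.9 CPM at 8°C, where the groups overlapped (log2 fold change -0.15, adjusted p = 0.637). At 8°C the genotypes differed by -0.03 on the log2 scale (95% interval -0.32 to 0.26), and the neighbouring means, in the order wild-type at 30°C, HY/HY at 30°C, wild-type at 8°C and HY/HY at 8°C, all overlapped.

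*Slc6a8* and *Ckmt1* were highest in the library with the highest epithelial marker sum and lowest in the one with the lowest. The genes most like *Slc6a8* in log2 CPM among 14586 compared were *Adck5* (Pearson r = 0.989 over 12 libraries), *Epcam*, an adhesion molecule of epithelia (r = 0.983), and *Msx2* (r = 0.978). *Epcam* came first without wild-type replicate 2 at 30°C (r = 0.983 over 11 libraries). The genes closest to *Ckmt1* were *Trim46* (r = 0.975) and *Plekhb1* (r = 0.968), and *Slc6a8* and *Ckmt1* had an r of 0.89 with each other. These are descriptions over libraries that share their groups, and the genes were picked as the highest of many. The 9 mammary epithelium markers, *Epcam* among them, summed to 3380 to 5550 CPM in wild-type mice kept at 30°C and to 2090 to 2380 CPM at 8°C, with 3 of 9 called lower. In HY/HY mice the sums were 884 to 2220 CPM at 30°C, where 1 of 9 was called lower than in wild-type mice, and 1300 to 2030 CPM at 8°C. Within both groups at 30°C and within HY/HY mice at 8°C, *Ckmt1* had the same order as the sums. Within wild-type mice at 8°C it did not, with 4.08, 3.32 and 2.69 CPM at sums of 2090, 2380 and 2310 CPM. Across groups the orders differed. At 8°C every wild-type sum lay above every HY/HY sum. The mean of *Ckmt1* there was 3.36 CPM in wild-type and 4.57 CPM in HY/HY mice. HY/HY replicate 2 at 30°C had 7.70 CPM of *Ckmt1* at a sum of 2220 CPM, above wild-type replicates 1 and 3 at 30°C with 6.47 and 5.20 CPM at sums of 4060 and 3380 CPM. The inguinal scWAT of female mice holds mammary ducts, and the part of this epithelium in the values of both genes was not tested.

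**Figure D4:**
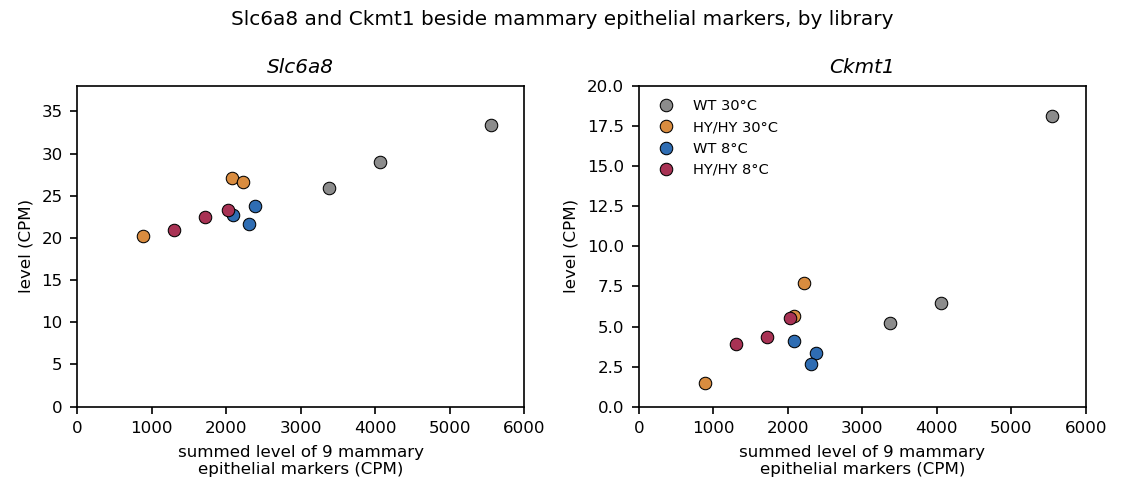
Level of Slc6a8 (left) and Ckmt1 (right) in CPM against the summed CPM of 9 mammary epithelium markers, each point 1 library, coloured by group. The library with the highest marker sum, 5550 CPM, has the highest Slc6a8 and Ckmt1 levels, 33.4 and 18.1 CPM. The library with the lowest sum, 884 CPM, has the lowest, 20.2 and 1.45 CPM. Across groups the order of Ckmt1 differs from that of the sums, as in HY/HY replicate 2 at 30°C (7.70 CPM at a sum of 2220 CPM). Within each group except wild-type at 8°C the orders are the same.

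*Alpl*, which encodes the phosphatase TNAP that hydrolyses phosphocreatine in this cycle, was at 23.9, 16.9 and 18.4 CPM in wild-type mice at 30°C and at 29.5, 30.2 and 28.4 CPM at 8°C. The groups did not overlap, and the mice in the cold were close together (SD 0.892 CPM). The log2 fold change was 0.58 (95% interval -0.017 to 1.17, edgeR adjusted p = 0.141), and 0.48 (adjusted p = 0.322) without replicate 2 at 30°C. *Alpl* was called in 1 of 21 alternatives, with the libraries of the comparison alone (0.59, edgeR adjusted p = 0.022). The highest adjusted p of edgeR was 0.558, with library totals in place of TMM. In HY/HY mice *Alpl* was at 24.1, 34.3 and 13.2 CPM at 30°C and at 33.6, 25.9 and 23.6 CPM at 8°C, so that the groups overlapped (log2 fold change 0.21, adjusted p = 0.758). The genotypes differed by 0.28 at 30°C (95% interval -0.31 to 0.87) and by -0.08 at 8°C (interval -0.68 to 0.51). *Alpl* is also known from the endothelium of some vessels, and 5 endothelial markers summed to 361 to 551 CPM in wild-type mice kept at 30°C and to 744 to 895 CPM at 8°C, with 3 called higher. Their part in the *Alpl* values was not tested. *Alpl* had the same order of group means as *Ckb*, with an r of 0.26 between the pair over 12 libraries.

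Around these genes, 39 others were read from the same model in 5 lists, of which 37 were tested. The network of creatine and adenylate kinases and their mitochondrial partners had the most calls: of 11 genes tested, 6 rose and 1 fell by cold in wild-type mice, with a median log2 fold change of 0.63. Over all genes tested 10.3% were called higher and 6.93% lower in this comparison, and the median was -0.069. *Slc25a5*, an exchanger of ADP and ATP across the inner mitochondrial membrane, went from 209, 208 and 249 CPM to 582, 585 and 634 CPM (log2 fold change 1.43, edgeR adjusted p = 0.00028). *Ak1*, the cytosolic adenylate kinase, went from 11.9, 26.4 and 11.1 CPM to 55.8, 53.4 and 49.9 CPM (1.68, edgeR adjusted p = 0.00224), and at 8°C it was at 20.6, 23.5 and 18.3 CPM in HY/HY mice. This made *Ak1* the single gene of the list that was called lower in HY/HY mice in the cold (log2 fold change -1.35, edgeR adjusted p = 0.019), a call lost without any wild-type replicate or without HY/HY replicates 1 or 3 at 8°C (0.0587 to 0.0875).

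*Ak3*, an adenylate kinase of the mitochondrial matrix, rose by a log2 fold change of 1.01 (edgeR adjusted p = 0.00517) and *Slc25a4*, another ADP and ATP exchanger, by 0.76 (adjusted p = 0.00677), and *Vdac2* and *Vdac3*, channels of the outer membrane that are named after their values were seen, by 0.67 and 0.63. *Vdac3* had an adjusted p of 0.0505 without wild-type replicate 3 at 8°C. The gene that fell was *Ckm*, which had an edgeR adjusted p of 0.724 without wild-type replicate 2 at 30°C, and of 0.0525 to 0.127 without HY/HY replicates 1 or 2 at 30°C or any of the wild-type replicates at 8°C. With library totals in place of TMM, *Slc25a4*, *Vdac2* and *Vdac3* were short of the fold limit. In HY/HY mice edgeR called 0 of the 11 by cold, with 1 at an unadjusted p under 0.05, and DESeq2 called 1, *Slc25a5*; *Ak3* and *Slc25a5* were called by edgeR without replicate 3 at 30°C. For the interaction edgeR called 0, with 5 at an unadjusted p under 0.05, and DESeq2 called *Ak1* and *Slc25a5*, each with the smaller response in HY/HY mice. Without wild-type replicate 2 at 30°C edgeR called 1, *Ak1*, in the same direction. Without HY/HY replicate 3 at 30°C it called 0.

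**Figure D5:**
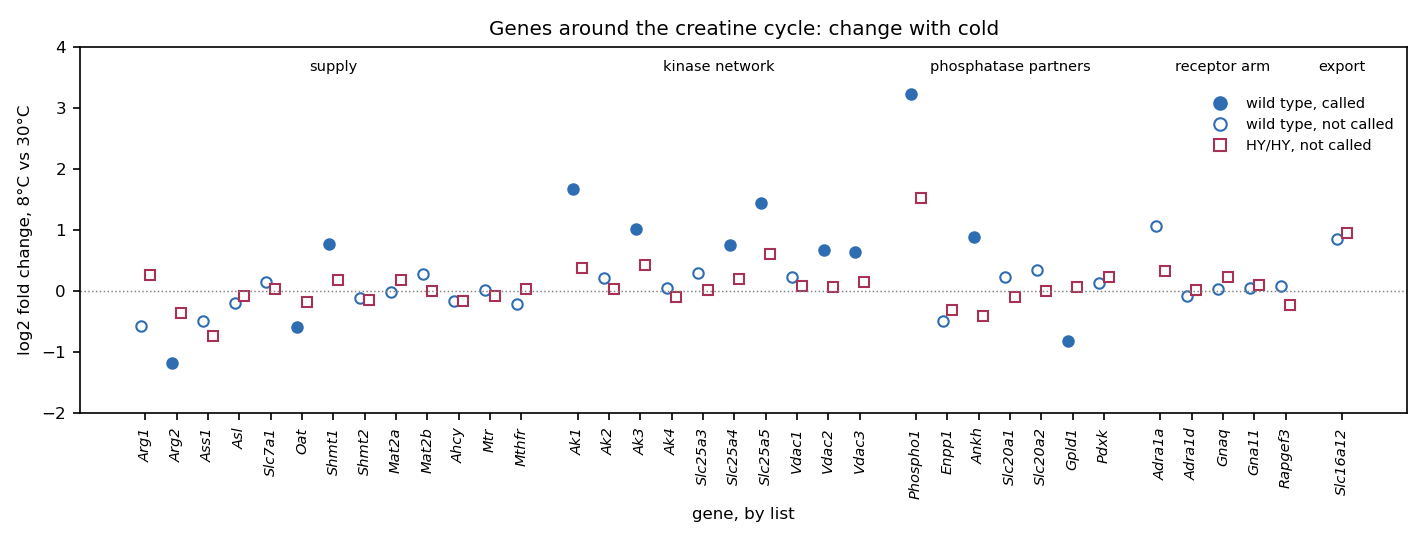
Log2 fold change of 8°C against 30°C (vertical axis) for 36 genes around the creatine cycle, by list, in wild-type mice (circles) and HY/HY mice (squares); filled symbols are calls. Phospho1 (3.24), Ak1 (1.68) and Slc25a5 (1.43) stand highest in wild-type mice, and no square is filled; Ckm is not drawn, since its counts were in 1 library.

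Of 7 partners of TNAP in phosphate handling that were tested, of 8 listed, 2 rose and 1 fell by cold in wild-type mice, with a median of 0.22 (all genes: 10.3% higher, 6.93% lower). *Phospho1*, a phosphatase of phosphocholine and phosphoethanolamine, had 6, 10 and 4 counts in wild-type mice at 30°C and 31, 34 and 53 counts at 8°C. Its log2 fold change was 3.24 (edgeR adjusted p = 5.43e-05). In HY/HY mice edgeR called 0 of the 7 genes by cold, with 1 at an unadjusted p under 0.05, *Phospho1*, at a log2 fold change of 1.52 (adjusted p = 0.0877); it was called there by DESeq2 and by edgeR without HY/HY replicate 3 at 30°C. At 8°C it had 13, 19 and 16 counts in HY/HY mice, which were lower than in wild-type mice (log2 fold change -1.32, edgeR adjusted p = 0.0179), and the call did not hold without wild-type replicate 2 or 3 or any of the HY/HY replicates at 8°C (edgeR adjusted p = 0.0508 to 0.0918). *Gpld1*, a phospholipase that releases GPI-anchored proteins, of which TNAP is one, went from 10.3, 11.7 and 11 CPM to 5.72, 7.16 and 5.83 CPM in wild-type mice (log2 fold change -0.82, edgeR adjusted p = 0.0218). At 8°C it was at 16.1, 8.37 and 13.7 CPM in HY/HY mice, a log2 fold change of 1.03 (edgeR adjusted p = 0.0197), which was not called without wild-type replicates 1 or 3 or HY/HY replicates 1 or 3 at 8°C (0.074 to 0.0875). *Ankh*, a membrane protein that raises extracellular pyrophosphate, had a log2 fold change of 0.89 by cold in wild-type mice (edgeR adjusted p = 0.0287). The calls of *Gpld1* and *Ankh* by cold were lost without wild-type replicate 2 at 30°C (edgeR adjusted p = 0.067 and 0.105) and without wild-type replicates 1 or 3 at 8°C (0.067 to 0.0806), and that of *Ankh* also without replicate 1 at 30°C or replicate 2 at 8°C (0.0572 and 0.0708). Between the genotypes at 30°C edgeR called 0 of the 7, with 2 at an unadjusted p under 0.05, and for the interaction 0, with 3; DESeq2 called *Ankh* in both, higher in HY/HY mice at 30°C and with the lower cold response in them.

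The supply of arginine, glycine and methyl groups for creatine synthesis gave 1 rise and 2 falls among 13 genes by cold in wild-type mice, with a median of -0.17, so that 3 of 13 were called where 17.3% of all genes were. *Shmt1*, which interconverts serine and glycine in the cytosol, went from 15.7, 15.4 and 12.9 CPM to 22.9, 22.4 and 29.9 CPM (log2 fold change 0.77, edgeR adjusted p = 0.00243). At 8°C it was at 12.9, 15.2 and 13.2 CPM in HY/HY mice, below every wild-type mouse (-0.87, edgeR adjusted p = 0.00481). With library totals in place of TMM the rise by cold was 0.43 (edgeR adjusted p = 0.0723). *Arg2*, the mitochondrial arginase, went from 91.3, 87.0 and 64.2 CPM to 24.1, 39.3 and 43.3 CPM (-1.18, edgeR adjusted p = 0.0167), and *Oat*, an aminotransferase of ornithine, from 108, 132 and 121 CPM to 67.9, 83.6 and 88.3 CPM (-0.59, adjusted p = 0.021). Without wild-type replicate 2 at 30°C these had an edgeR adjusted p of 0.0508 and 0.0782, and without wild-type replicate 1 at 8°C of 0.0672 and 0.0884. *Arg2* was also lost without wild-type replicate 1 at 30°C (0.0527), and *Oat* without wild-type replicate 2 at 8°C (0.0577) and with DESeq2, where it was short of the fold limit. By cold in HY/HY mice 0 of these genes were called by edgeR and 0 by DESeq2, with 0 at an unadjusted p under 0.05. Between the genotypes at 30°C edgeR called 0, with 1 at an unadjusted p under 0.05, which was *Arg2*, called lower by DESeq2.

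Of the receptor arm that raises creatine cycling, 5 of 6 genes were tested and 0 were called by edgeR in any of the 5 comparisons, with 1 at an unadjusted p under 0.05 by cold in wild-type mice and 2 between the genotypes at 8°C. DESeq2 called 1, *Adra1a*, by cold in wild-type mice. *Adra1a*, the adrenergic receptor at its head, is named after its values were seen: it was at 11.2, 7.03 and 20.1 CPM in wild-type mice at 30°C and at 23.4, 25.3 and 31.3 CPM at 8°C (log2 fold change 1.07, edgeR adjusted p = 0.0641). *Slc16a12*, a creatine transporter of the monocarboxylate family that can let creatine out of cells, was higher in HY/HY mice at 8°C, at 12.2, 11.7 and 23.6 CPM against 3.64, 3.24 and 6.47 CPM in wild-type mice (log2 fold change 1.82, edgeR adjusted p = 0.0362). This call was lost without any of the wild-type replicates or without replicates 1 or 3 of HY/HY mice at 8°C (edgeR adjusted p = 0.0597 to 0.154). At 30°C it was at 5.69, 8.01 and 11 CPM in HY/HY and at 4.53, 1.51 and 1.38 CPM in wild-type mice, and over both temperatures, the contrast chosen after values were seen, the log2 fold change was 1.77 (edgeR adjusted p = 0.0119). Every HY/HY mouse was above every wild-type mouse at the same temperature, as for *Gamt*.

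By pattern over the 12 libraries, the genes most like *Ckb* were *Gm5457* (r = 0.972), *BC002163* (r = 0.944) and *Gm4853* (r = 0.938), all annotated as pseudogenes. Without wild-type replicate 2 at 30°C they were *Gm5457* (r = 0.988), *Nudt1* and *Fndc5*. *Gamt* was most like *Cndp1* (r = 0.943), a carnosine dipeptidase, and *Rarres2*, which encodes the adipokine chemerin, led without that library (r = 0.965). The closest gene to *Alpl* was *Ltbp2* (r = 0.892). Among the members themselves, *Gatm* and *Gamt* had an r of 0.53 over the 12 libraries and *Ckb* had negative values with *Slc6a8* (-0.78) and *Ckmt1* (-0.71).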

How the data were processed

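RNA of scWAT from 12 mice was sequenced as stranded paired-end libraries. Per the study's methods, the authors trimmed reads with fastp and aligned them with STAR to mm10 with GENCODE M25; versions are not given in the sources used here. The deposited files hold whole-number counts of read pairs per gene, not normalized, in 3 strand settings. The setting with 95.5 to 96.2% of the stranded counts was used. The 4 rows that name no gene (unmapped 25.1 to 28.8% of pairs, multimapping 26.7 to 32.2%, no feature 1.99 to 3.20%, ambiguous 0.93 to 1.1%) were left out of library sizes.

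Gene IDs were matched to symbols of their own for 29944 of 55401 genes. Counts were filtered with filterByExpr, scaled by TMM and fitted over the 4 groups with edgeR's quasi-likelihood test (edgeR 4.0.16, limma 3.58.1, R 4.3.3; 8 residual degrees of freedom) with Benjamini-Hochberg adjustment over 16540 genes. DESeq2 1.42.0, other scalings, filters and strand settings, a replicate block and leaving out each library were alternatives. The fit was tested on simulated counts. Log2 CPM used a prior count of 2. Exon lengths came from the GENCODE M1 annotation and near copies from minimap2 on NCBIM37. P-values measure the spread between 3 mice a group, and limits from a count of 0 cover counting error only.

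The members, lists and named genes were chosen with earlier results of these data known. All members are named, with the up to 4 called genes of lowest p in each wider list and up to 3 genes closest in pattern; 1 of these is not reported here. The contrasts averaged over genotype or temperature were chosen after the values were seen. By cold in HY/HY mice all libraries of the same number deviated together (r = 0.112 to 0.303), and 6 of 6 correlated best with their own number. By cold in wild-type mice and between the genotypes at 8°C 4 of 6 did so, and between the genotypes at 30°C 2 of 6. The labels do not say what the numbers stand for. No 2 libraries were alike (highest r between log2 levels 0.9885).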

Additional observations from a re-analysis of the deposited data

How the results depend on the processing

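The rise of *Ckb* by cold in wild-type mice was called under all 21 alternatives. Members called by cold in wild-type mice numbered 1, and 4 with library totals alone, 2 without a filter on low counts, 3 with the replicate block (*Ckb*, *Ckmt1* and *Gamt*), 3 with the libraries of the comparison alone, 2 with DESeq2, 2 with wild-type replicate 2 and HY/HY replicate 3 at 30°C both left out, and 1 to 2 with 1 library left out. At 30°C, 0 members were called between the genotypes, and 1, *Gamt*, without a filter (log2 fold change 0.77, edgeR adjusted p = 0.0475) and with DESeq2. These counts leave out *Ckmt2*. Without a filter it was also called lower at 30°C in HY/HY mice and by cold in wild-type mice, from 1 library. At 8°C, 0 were called, and 1 (*Gamt*) with library totals, with the libraries of the comparison alone, with DESeq2 and with both libraries left out, and 0 to 1 with 1 library left out. Over both genotypes 2 were called by cold, 1 with library totals and 1 to 2 with 1 library left out, and over both temperatures 1 was called between the genotypes, 2 with both libraries left out and 1 to 2 with 1 left out. The replicate block changed no other count of members. Outside the HY/HY cold comparison, libraries of the same number had an r of -0.0552 to 0.346 in their deviations from the group means. The r had both signs in each of these comparisons, which does not decide whether libraries were paired by number. With the replicate block edgeR called 160 genes by cold in HY/HY mice, against 41 without it. Between the genotypes at 30°C it called 514, against 166. Library totals alone move the median over all genes by cold in wild-type mice from -0.0693 to -0.406 on the log2 scale, which bears on every direction there. The cause of the other changes was not tested. Not divided by exon length, the share of *Ckb* was 95.8% in wild-type and 93% in HY/HY mice at 8°C.

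Of the members' log2 fold changes under alternatives, 801 kept direction and call, 23 gained and 6 lost a call and 34 changed sign, all of them uncalled. With both libraries left out, *Gatm* was 0.16 by cold in wild-type, -0.0953 by cold in HY/HY mice, -0.255 for the interaction and 0.0323 by cold over both genotypes, *Alpl* -0.072 by cold in HY/HY mice, *Ckb* -0.0244 and *Ckmt1* 0.192 between genotypes at 30°C, *Ckmt1* 0.323 between genotypes over both temperatures and *Gamt* 0.0696 for the interaction. With the replicate block *Ckmt1* was 0.0401 by cold in HY/HY mice. With library totals *Gatm* was -0.119 by cold in HY/HY mice, *Slc6a8* 0.108 and *Alpl* 0.0571 between genotypes at 8°C and *Gamt* 0.175 for the interaction. With 1 library left out, *Gatm* ranged from -0.264 to 0.162 by cold in wild-type mice, from -0.165 to 0.149 by cold in HY/HY mice, from -0.131 to 0.295 for the interaction and from -0.136 to 0.0963 by cold over both genotypes. *Alpl* ranged from -0.0708 to 0.569 by cold in HY/HY mice, between genotypes from -0.0752 to 0.571 at 30°C, from -0.245 to 0.0218 at 8°C and from -0.0796 to 0.245 over both temperatures. *Ckmt1* ranged from -0.54 to 0.348 by cold in HY/HY mice and from -0.509 to 0.112 between genotypes over both temperatures, *Slc6a8* from -0.0646 to 0.015 between genotypes at 8°C and *Gamt* from -0.208 to 0.185 for the interaction.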
